A study of Homo sapiens with 4 samples.

Results

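The genes described here are 10 regulators of the NRF2 pathway: the CNC factors NFE2L1, NFE2L2 and NFE2L3, the repressor KEAP1, the small MAF factors MAFF, MAFG and MAFK, the repressors BACH1 and BACH2, and the adaptor SQSTM1. They were selected by symbol, and all 10 were among the 23228 genes listed. ES2, an established human ovarian cancer cell line, was grown in phenol red-free medium with charcoal-treated serum and received vehicle or 100 μM liquiritigenin (Liq) for 24 h, with 2 libraries per group. Liq is a plant flavanone used in the study as an agonist of estrogen receptor beta (ERβ), and the comparison asks which genes it changed. Nothing in the labels says whether the 2 libraries of a group came from separate cultures, so the p-values may measure technical spread only.

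NRF2, the product of NFE2L2, is a transcription factor of the oxidative stress response. In unstressed cells KEAP1 holds it and presents it to the CUL3 ubiquitin ligase, so its protein is short-lived, and electrophiles that modify KEAP1 let it accumulate. NRF2 then pairs with a small MAF protein and binds antioxidant response elements (AREs), while BACH1 pairs with the same small MAF proteins and represses many of these sites until heme removes it. SQSTM1 (p62) is an autophagy receptor that binds KEAP1 and is itself an NRF2 target. Much of this control acts on protein, which RNA-seq does not measure.

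The libraries held 34573053 to 48933893 reads counted on genes, and all 10 regulators were among the 13546 genes that passed the filter on low counts. Expression is given as CPM, counts per 1000000 counted reads after TMM normalization, and a change is the log2 fold change of Liq over vehicle. A gene was called at a Benjamini-Hochberg adjusted p under 0.05 from edgeR's quasi-likelihood test. The estrogen receptor genes were barely detected, with 4, 7, 5 and 14 counts for ESR2 and 17 to 34 for ESR1, where 3 counts correspond to 0.060 to 0.084 CPM. VIM, the mesenchymal filament vimentin, stood at 7479 ± 178 CPM with vehicle and 6176 ± 431 CPM with Liq (SD, n = 2), whereas the epithelial genes CDH1 and EPCAM had 0 and 1 to 3 counts. The epithelial keratins were expressed, with KRT18 at 198 ± 9 CPM and KRT8 at 23.8 ± 0.7 CPM in vehicle. The leukocyte genes CD3E and PTPRC had 0 counts and 0 or 1 count. Of the endothelial genes, CDH5 stood at 51.8 ± 1.6 CPM in vehicle, and PECAM1 had 2 to 10 counts. Of 17 genes chosen to describe the line 7 were tested, and 4 of them (VIM, KRT18, PAX8 and WT1) fell and 0 rose, a share of 57.1% beside 24% of all tested genes.

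Liq lowered the mRNA of MAFF, MAFK and NFE2L2 and raised that of SQSTM1. In bulk RNA, a lower level in every cell and fewer cells with the mRNA cannot be told apart. These were the 4 of 10 regulators called, 3 downward and 1 upward, beside 24% of all tested genes (11.3% lower and 12.6% higher with Liq). MAFF was the 1 regulator that also changed by at least 1.5-fold, a size passed by 6.45% of all tested genes (581 upward and 293 downward, or 352 and 394 with offsets that follow the expression level). The median log2 fold change was -0.12 over the 10 regulators and 0.01 over all tested genes. In 8 of the 10 the Liq pair lay entirely above or entirely below the vehicle pair, beside 61.7% of all tested genes, so that this share is not far from the background. NFE2L1 and BACH1 were the regulators whose groups overlapped. When 1 library was left out, 2 to 5 regulators were called. The 2 calls that remained without vehicle replicate 2 were MAFF and MAFK.

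**Figure D1:**
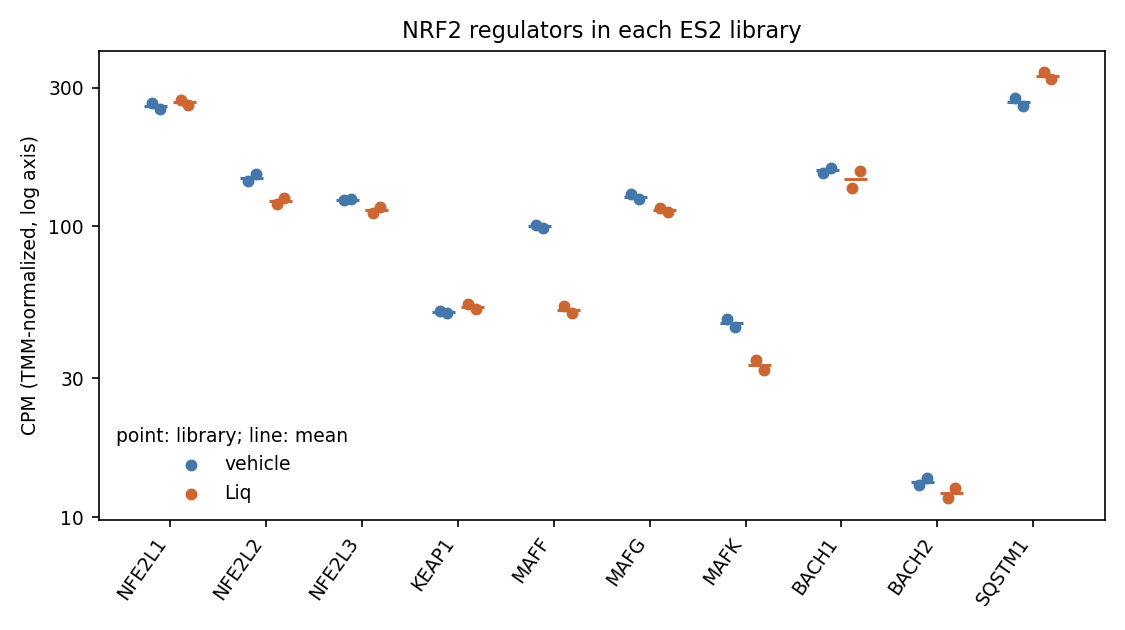
Level of each regulator in CPM (log axis) in the 2 vehicle and 2 Liq libraries, with a point per library and a line at the group mean. MAFF separates most, at 98.8 to 101 CPM in vehicle and 50.3 to 53.1 CPM in Liq, while NFE2L1 and BACH1 overlap between groups.

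The promoter windows of 4 regulators are shown because MAFF had the largest change, NFE2L2 and SQSTM1 were called in opposite directions, and KEAP1 shares the ARE core with MAFF. RefSeq windows of GRCh38.p14, from 250 bases before to 50 bases after an annotated start, were matched for 9 of the 10 regulators (MAFK was not matched), 17 windows in all. Capitals mark the ARE core, searched as TGACNNNGC on both strands, and sequences run 5′ to 3′ on the strand of the gene. The windows are chr22:38201744-38202043 (plus strand) for MAFF, chr19:10502722-10503021 (minus strand) for KEAP1, chr2:177264678-177264977 (minus strand) for NFE2L2 and chr5:179820655-179820954 (plus strand) for SQSTM1.
MAFF: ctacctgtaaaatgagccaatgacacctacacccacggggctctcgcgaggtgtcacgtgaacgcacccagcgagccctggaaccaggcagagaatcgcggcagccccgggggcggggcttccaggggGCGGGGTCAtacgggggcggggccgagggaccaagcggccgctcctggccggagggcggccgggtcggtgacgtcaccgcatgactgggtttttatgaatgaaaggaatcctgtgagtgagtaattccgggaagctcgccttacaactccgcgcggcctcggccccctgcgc
KEAP1: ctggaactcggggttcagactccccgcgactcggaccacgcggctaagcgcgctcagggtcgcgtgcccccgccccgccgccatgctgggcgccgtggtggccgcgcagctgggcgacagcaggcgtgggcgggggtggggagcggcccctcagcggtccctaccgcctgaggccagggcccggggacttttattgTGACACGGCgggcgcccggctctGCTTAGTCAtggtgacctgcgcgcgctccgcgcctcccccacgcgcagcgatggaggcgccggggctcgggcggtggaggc
NFE2L2: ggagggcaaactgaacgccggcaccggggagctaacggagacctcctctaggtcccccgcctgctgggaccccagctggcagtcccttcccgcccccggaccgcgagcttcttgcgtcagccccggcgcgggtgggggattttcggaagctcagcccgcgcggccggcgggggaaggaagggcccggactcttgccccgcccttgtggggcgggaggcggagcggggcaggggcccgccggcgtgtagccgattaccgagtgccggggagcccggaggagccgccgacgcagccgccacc
SQSTM1: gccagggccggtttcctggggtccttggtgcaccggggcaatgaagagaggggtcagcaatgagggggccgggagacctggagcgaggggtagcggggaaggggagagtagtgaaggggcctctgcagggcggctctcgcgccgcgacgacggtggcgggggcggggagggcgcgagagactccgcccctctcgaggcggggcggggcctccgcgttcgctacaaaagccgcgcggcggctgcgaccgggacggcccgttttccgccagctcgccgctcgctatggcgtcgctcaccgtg
The ARE core occurred in 2 of the 17 windows and in 13.3% of all 35116 promoter windows in the table. The MAFF window held 1 match beginning at -122 from the start, on the minus strand. It also held a cyclic AMP response element (CRE), TGACGTCA, at -54 and an E-box, CACGTG, at -196. The KEAP1 window held 2 ARE cores, at -54 on the plus strand and at -31 on the minus strand. No match was found in the windows of NFE2L2 and SQSTM1, which says only that these letters are not in their 300-base windows. Among the other windows, the AP-1 type element TGAGTCA was found at -48 of a BACH1 start, beside 4.95% of all windows, and the CRE at -82 of the BACH2 start, beside 1.85%. E-boxes, present in 7.26% of all windows, were found in a further MAFF window at -81 and in the MAFG window at -16. None of these matches overlapped another.

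Among the CNC factors, which carry the transactivation domains, NFE2L2 fell and its relatives did not pass the test. NFE2L2 (GRCh37, chromosome 2 from 178083395 to 178257484, minus strand) had 143 and 151 CPM in the vehicle libraries and 119 and 125 CPM in the Liq libraries. Both Liq libraries lay below both vehicle libraries. The log2 fold change was -0.27 (edgeR adjusted p = 0.008329, SE 0.07), a mean of 147 ± 5 CPM with vehicle and 122 ± 4 CPM with Liq (SD, n = 2). The call was lost without vehicle replicate 1 (edgeR adjusted p = 0.07384) and without vehicle replicate 2 (0.2089), while the change kept its sign at -0.31 and -0.23. In GENCODE v44 the exons of NFE2L2 overlap those of HNRNPA3 on the opposite strand by 3509 bases. The annotation used for the read counting was not given in the sources used here and may differ. HNRNPA3 had a change of -0.04 that did not pass (edgeR adjusted p = 0.7695).

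NFE2L1 (chromosome 17 from 46125691 to 46138907, plus strand) encodes NRF1, an endoplasmic reticulum-anchored factor that controls proteasome genes. It had 265 and 254 CPM in vehicle and 273 and 262 CPM in Liq, and the groups overlapped. Its log2 fold change was 0.04 with a 95% interval of -0.10 to 0.18 (edgeR adjusted p = 0.7013), which leaves out a 1.5-fold change in either direction. NFE2L3 (chromosome 7 from 26191818 to 26226757, plus strand), which encodes NRF3, had 123 and 124 CPM in vehicle and 111 and 117 CPM in Liq. Its Liq libraries were the lower pair, but the change of -0.12 did not pass the test (95% interval -0.27 to 0.03, edgeR adjusted p = 0.2488). The exons of NFE2L3 overlap those of HNRNPA2B1 on the opposite strand by 1207 bases in the annotation. HNRNPA2B1 had 57258 to 83663 counts and fell by 0.24 on the log2 scale (edgeR adjusted p = 0.002597). The strand setting of the read counting was not given in the sources used here. Whether reads on such shared bases were counted, and to which gene, is therefore not known. Reads that the counting tallied as ambiguous, 0.54% to 0.56% of each library, were left out.

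KEAP1 (chromosome 19 from 10596801 to 10614234, minus strand), the redox sensor that recruits NRF2 to CUL3, had 51.1 and 50.6 CPM in vehicle and 54.1 and 51.9 CPM in Liq. Its Liq libraries were the higher pair by a small margin. The log2 fold change of 0.06 did not pass the test (95% interval -0.11 to 0.23, edgeR adjusted p = 0.6359, SE 0.08), and an increase of 1.5-fold lies outside the interval. SQSTM1 (chromosome 5 from 179233398 to 179265078, plus strand) rose from 276 and 259 CPM in vehicle to 340 and 320 CPM in Liq. Both Liq libraries were above both vehicle libraries, and the log2 fold change was 0.30 (edgeR adjusted p = 0.001836, SE 0.07). The call was lost without vehicle replicate 2, the lower vehicle library for this gene (log2 fold change 0.26, edgeR adjusted p = 0.09806). C5orf45, whose exons overlap those of SQSTM1 by 1582 bases on the opposite strand, had 404 to 683 counts against 9711 to 16083 for SQSTM1 and rose too, by 0.43 on the log2 scale (edgeR adjusted p = 0.004374).

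**Figure D2:**
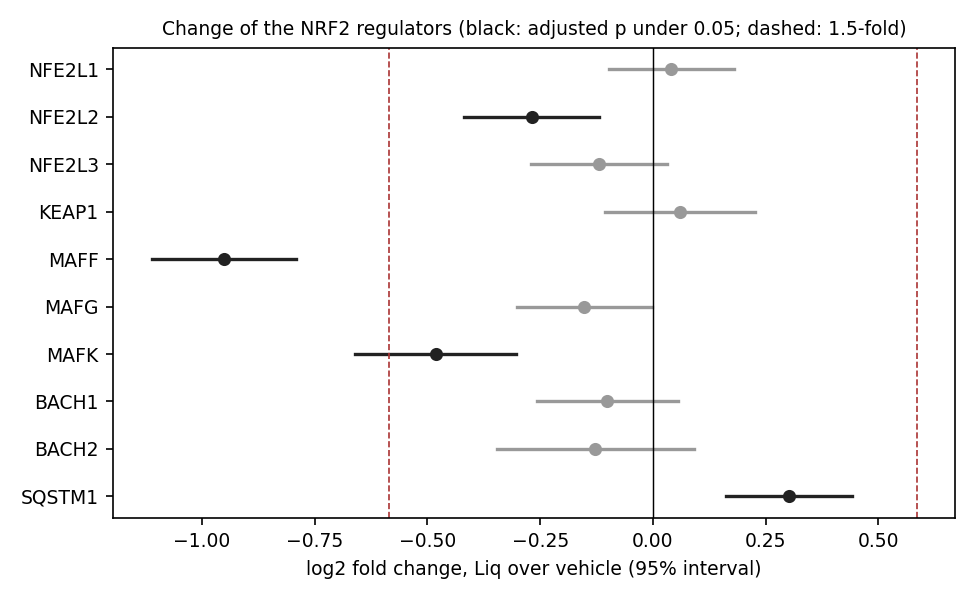
Log2 fold change of Liq over vehicle for the 10 regulators with 95% intervals from edgeR, black where the adjusted p is under 0.05, and dashed lines at 1.5-fold. MAFF lies wholly beyond the lower dashed line with its point at -0.95, the points of MAFK, NFE2L2 and SQSTM1 lie between the dashed lines with intervals clear of 0, and the other 6 are grey.

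The small MAF factors lack a transactivation domain and serve as the DNA-binding partners of both NRF2 and BACH1. MAFF (chromosome 22 from 38596774 to 38612514, plus strand) had 4157 and 3700 counts in vehicle and 1888 and 2524 in Liq, or 101 and 98.8 CPM against 53.1 and 50.3 CPM. The Liq libraries were far below the vehicle libraries relative to the spread within either pair. The log2 fold change was -0.95 (edgeR adjusted p = 7.895e-10, SE 0.08), and by p-value MAFF ranked 46 among the 13546 tested genes. PLA2G6, which overlaps MAFF by 326 exon bases on the opposite strand, had 87 to 224 counts and changed the other way, by 0.84 on the log2 scale (edgeR adjusted p = 0.0009049).

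MAFK (chromosome 7 from 1570338 to 1582679, plus strand) had 48.13 and 44.96 CPM in vehicle and 34.7 and 32.1 CPM in Liq. Again the groups did not overlap. Its log2 fold change was -0.48 (95% interval -0.66 to -0.30, edgeR adjusted p = 0.000202, SE 0.09). The estimate was a reduction below 1.5-fold, but the interval includes one of 1.5-fold. MAFG (chromosome 17 from 79876146 to 79885611, minus strand) had 129 and 124 CPM in vehicle and 116 and 112 CPM in Liq. Its Liq pair was the lower one, with a change of -0.15 (95% interval -0.30 to -0.0019) and an adjusted p of 0.1338 from edgeR, which did not pass the threshold. SIRT7 shares 105 exon bases with MAFG on the same strand and changed by 0.26 (edgeR adjusted p = 0.04515).

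Summed per kb of their MANE Select transcripts (the reference transcript of each gene), the small MAF mRNAs came to 82.4 and 79.4 CPM per kb in vehicle and 55.4 and 52.9 in Liq. The sum in Liq was 0.67 of that in vehicle, and 0.73 with the union of annotated exons as the length. MAFF made up 51.7% and 52.4% of the sum in vehicle and 40.3% and 40.0% in Liq. MAFG took 31.0% and 30.8% in vehicle against 41.2% and 42.0% in Liq. MAFK held 16.7% to 18.5% of the sum in the 4 libraries. The MANE Select lengths were chosen after seeing the data, and the shares and the order of MAFF and MAFG depend on them. With the union of annotated exons, MAFF took 33.7% and 34.3% of the sum in vehicle and 24.1% and 23.8% in Liq, and MAFG 46.2% and 46.1% against 56.1% and 57.1%. MAFG was then the more abundant in both groups, at 24.2 ± 0.7 against 17.8 ± 0.3 CPM per kb in vehicle (SD, n = 2), whereas with MANE Select lengths MAFF was the more abundant in vehicle. The share of MAFF was lower in both Liq libraries with either length. These shares are descriptions, since 2 libraries against 2 cannot give an exact permutation p below 0.3333.

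**Figure D3:**
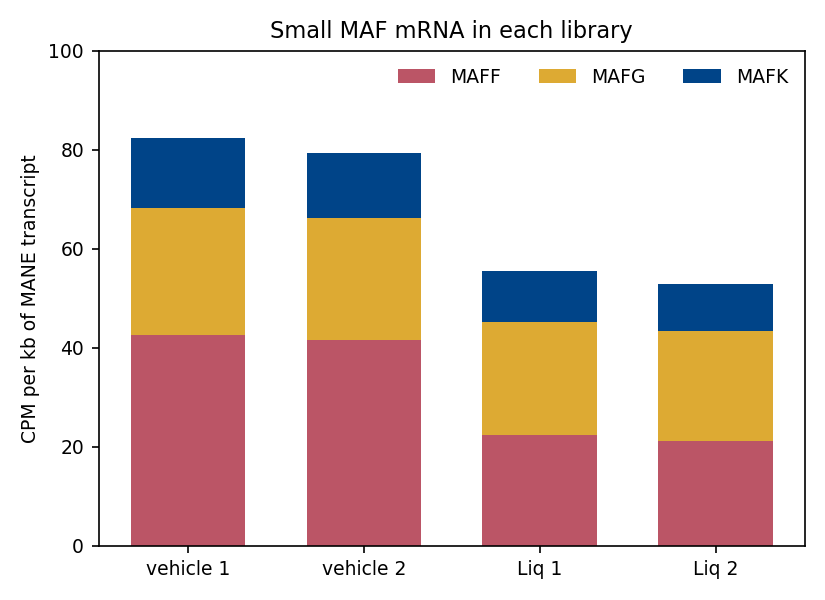
Level of MAFF, MAFG and MAFK in each library, stacked, in CPM per kb of MANE Select transcript. The stacks reach 79.4 to 82.4 in vehicle and 52.9 to 55.4 in Liq, and most of the difference in height is in the MAFF segment.

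The BACH repressors did not pass the test. BACH1 (chromosome 21 from 30566392 to 31003071, plus strand), the ubiquitous heme-regulated repressor of HMOX1, had 153 and 159 CPM in vehicle and 135 and 155 CPM in Liq. Liq replicate 1 was the low library, and Liq replicate 2 lay within the vehicle range. The log2 fold change was -0.10 (95% interval -0.26 to 0.05, edgeR adjusted p = 0.3563, SE 0.08). Without Liq replicate 2 it was -0.21 and passed the threshold (edgeR adjusted p = 0.03863). BACH2 (chromosome 6 from 90636247 to 91006562, minus strand), best known from lymphocytes, was the lowest of the regulators with 12.9 and 13.6 CPM in vehicle and 11.6 and 12.6 CPM in Liq. Its change of -0.13 had a 95% interval of -0.35 to 0.09 (edgeR adjusted p = 0.413).

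Per kb of MANE Select transcript, the order of mRNA levels in vehicle was SQSTM1, NFE2L2, NFE2L1, MAFF, NFE2L3, BACH1, MAFG, KEAP1, MAFK and BACH2. The values fell from 94.2 ± 4.1 CPM per kb for SQSTM1 through 60.2 ± 2.2 for NFE2L2, 42.1 ± 0.7 for MAFF and 19.8 ± 0.1 for KEAP1 to 1.44 ± 0.06 for BACH2 (SD, n = 2). No neighbours in that order had overlapping vehicle libraries. In Liq, NFE2L1 stood above NFE2L2 (55.2 ± 1.7 against 49.96 ± 1.64 CPM per kb), and MAFF dropped from rank 4 to rank 7 at 21.8 ± 0.8. There it overlapped MAFG at 22.5 ± 0.4 CPM per kb. The order depends on the length used. With the union of annotated exons, which for NFE2L2 spans 14975 bases against 2446 in the MANE Select transcript, NFE2L2 ranked 9 in vehicle at 9.83 CPM per kb and NFE2L1 ranked 1 at 44.1.

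Within each library the level of NFE2L2 was 2.94 and 3.13 times that of KEAP1 in vehicle and 2.32 and 2.52 times in Liq, per kb of MANE Select transcript. The ratio of SQSTM1 to KEAP1 went the other way, from 4.88 and 4.63 to 5.67 and 5.57. The NFE2L2 to BACH1 ratio was 2.15 and 2.19 in vehicle and 2.03 and 1.85 in Liq. All 3 ratios separated the groups, as 61.7% of all tested genes did in CPM. For NFE2L2 to BACH1 the 2 Liq libraries differed from each other by more than the gap between the groups. The fold between groups does not depend on the lengths, but the ratios themselves do. With the union of annotated exons the NFE2L2 to KEAP1 ratio was 0.67 and 0.71 in vehicle and 0.53 and 0.57 in Liq. The NFE2L2 to BACH1 ratio was then 0.48 and 0.49 in vehicle and 0.45 and 0.41 in Liq, so that both turned to below 1. Over the 4 libraries, the tested genes nearest to NFE2L2 in Euclidean distance of log2 CPM centred on the vehicle mean were KBTBD2 (0.020), SLC4A1AP (0.022) and FGD6 (0.024). Those nearest to MAFF were BEX1 (0.061), JAG1 (0.084) and CORO2B (0.088).

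Among well-known ARE-driven genes, 36 of 38 passed the low-count filter, and Liq raised 25 and lowered 0. Of these 25, 19 rose by at least 1.5-fold. The share called was 69.4%, beside 24% of all tested genes, and the median log2 fold change was 0.64, beside 0.01. The 4 with the smallest p-values were TXNRD1, a selenoenzyme that reduces thioredoxin, SLC7A11, the cystine importer, FTH1, the ferritin heavy chain, and ABCC3, an efflux pump. Their log2 fold changes were 1.00, 1.36, 1.20 and 1.53. The count of FTH1 is uncertain because the genome holds many processed copies of it. HMOX1, the heme oxygenase repressed by BACH1, was picked out after its values were seen. It had 394 and 338 counts in vehicle and 680 and 1049 in Liq, a log2 fold change of 1.11 (edgeR adjusted p = 1.23e-08, SE 0.11). The 25 genes rose in the same libraries that held less NFE2L2, MAFF and MAFK mRNA. The list was written with earlier results of these data known and is not independent evidence of a direction.

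Genes that act on or beside the regulators were called at a share near the background. Over 7 lists of such genes, 6 were called upward and 14 downward, where 12.6% of all tested genes rose and 11.3% fell. Together 20 of 73 tested genes were called, a share of 27.4% beside 24% of all tested genes. That number was 5 without vehicle replicate 1, 9 without vehicle replicate 2 and 13 with DESeq2. In the ubiquitin ligase list, with CUL3, RBX1, the beta-TrCP proteins and the GSK3 kinases that mark NRF2 for them, 3 of 13 fell and 0 rose. The share called there was 23.1%, near the 24% of all tested genes, but all of it was downward, where 11.3% of all tested genes fell. GSK3A had a log2 fold change of -0.29 (edgeR adjusted p = 0.01718) and UBE2M, which conjugates NEDD8 to cullins, one of -0.26 (0.03424). The GSK3A call was lost without vehicle replicate 1 (0.4243) and without Liq replicate 2 (0.06881). The UBE2M call was lost in 5 alternatives, with adjusted p-values of 0.05403 to 0.5116. CUL3 itself stood at 138 ± 4 CPM with vehicle and 130 ± 10 CPM with Liq (SD, n = 2), with a change of -0.08 that did not pass (edgeR adjusted p = 0.4572).

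Of 16 genes whose proteins bind KEAP1 or NRF2 or act on SQSTM1, 3 fell and 0 rose. The share called was 18.8%, below the 24% of all tested genes, but all of it was downward, where 11.3% of all tested genes fell. CDKN1A, the cell cycle inhibitor p21 that can bind NRF2 in competition with KEAP1, had 18.5 ± 0.9 CPM with vehicle but 8.75 ± 0.17 CPM with Liq (SD, n = 2) and fell, its log2 fold change being -1.08 (edgeR adjusted p = 1.999e-08, SE 0.11). Among 11 cofactors 2 rose and 2 fell, a share of 36.4% beside 24% of all tested genes. RARA, a retinoic acid receptor that restrains NRF2, changed by -0.36 (edgeR adjusted p = 0.004736) and EP300, an acetyltransferase coactivator, by -0.24 (0.02223). Without vehicle replicate 1 the adjusted p was 0.1133 for RARA and 0.2983 for EP300. EP300 was also lost without vehicle replicate 2 (0.1592) and with loess offsets (0.05838).

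Of 8 genes that process NRF1, 1 rose and 1 fell, a share of 25% beside 24% of all tested genes. SEL1L, a scaffold of endoplasmic reticulum-associated degradation, changed by 0.33 (edgeR adjusted p = 0.002192) and HCFC1, which works with the glycosyltransferase OGT, by -0.32 (0.002947). Without vehicle replicate 1 both calls were lost (0.05794 and 0.1521), and that of SEL1L was also lost without vehicle replicate 2 (0.0773). Of 4 genes that degrade or export BACH1, 1 was called, a share of 25% beside the same 24%. This was FBXL17, a ubiquitin ligase adaptor, which fell by 0.47 on the log2 scale (edgeR adjusted p = 0.0007912, SE 0.10). RBCK1 had a change of 0.14 that did not pass (edgeR adjusted p = 0.2227), and did without Liq replicate 2 (0.04257).

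**Figure D4:**
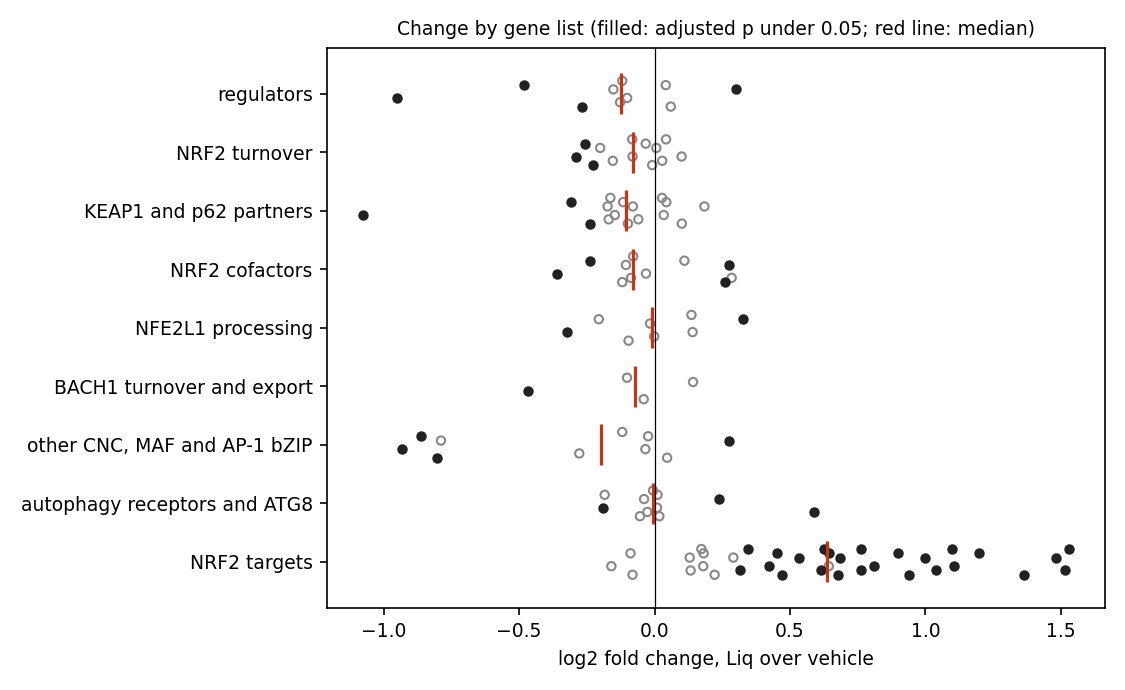
Log2 fold change of Liq over vehicle for each tested gene of the 10 regulators and of 8 gene lists, filled where the adjusted p is under 0.05, with a red line at the median of each list. The ARE-driven genes (NRF2 targets) lie mostly to the right with a median of 0.64, and the medians of the other lists lie between -0.20 and -0.0056.

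**Figure D5:**
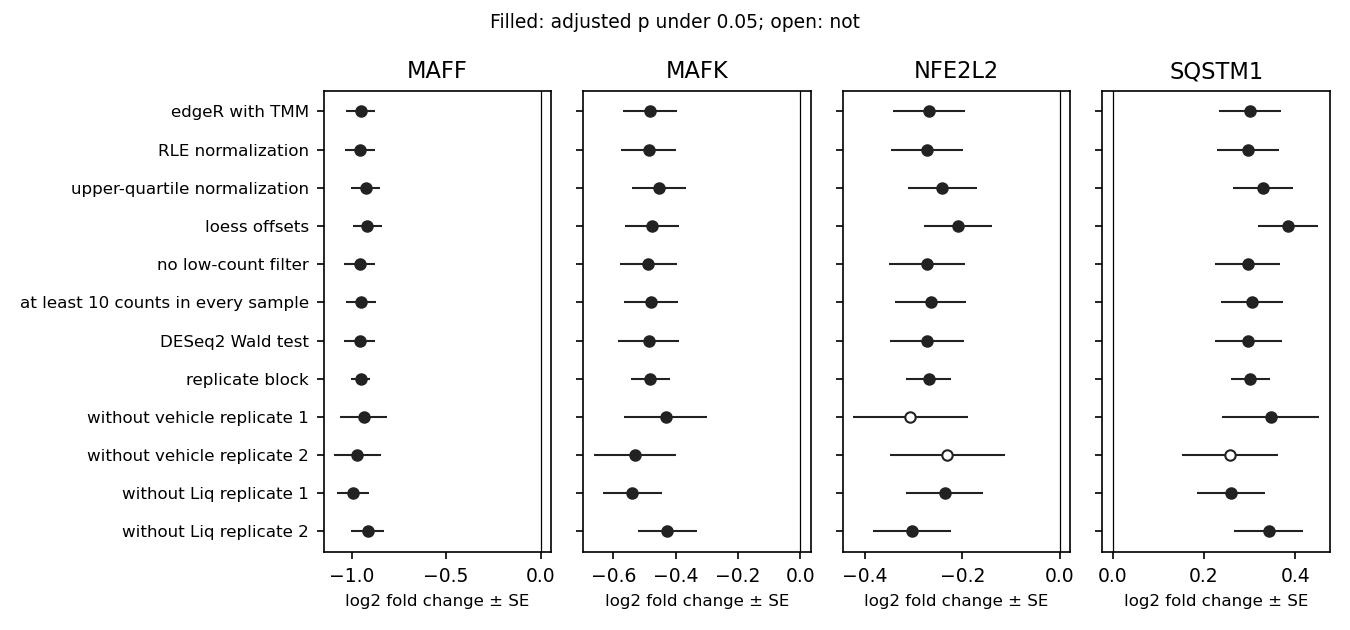
Log2 fold change with its SE for the 4 called regulators under edgeR with TMM and 11 alternatives, filled where the adjusted p is under 0.05. MAFF and MAFK are filled throughout, NFE2L2 is open without vehicle replicate 1 or 2, and SQSTM1 is open without vehicle replicate 2.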

How the data were processed

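Total RNA from ES2 cells was made into TruSeq libraries and sequenced as 100-base single-end reads. Per the submitters' processing notes and the paper, the authors aligned reads to hg19 (GRCh37) with TopHat2 2.0.8b, counted them per gene with HTSeq and tested them with DESeq. The deposited values are raw counts per gene, 1 table per library, neither normalized nor pooled. The tally lines at the end of each table (44.4% to 45.9% of reads, mostly reads aligned to more than 1 place) were left out. Groups and replicate numbers came from the sample titles and the dose from the paper.

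Genes were filtered with filterByExpr (minimum count 10, minimum total 15), normalized by TMM and compared with edgeR 4.0.16 in R 4.3.3 (glmQLFit and glmQLFTest, no replicate block). P-values were adjusted by Benjamini-Hochberg over all 13546 tested genes. The SE is the size of the log2 fold change divided by the square root of F, and 95% intervals use the t distribution with edgeR's degrees of freedom. Intervals and the floor of 3 counts cover the spread between libraries and counting error, respectively. The fits were tried on simulated counts with 200 changed genes and a common dispersion for all genes. There edgeR recovered 194 with 12 false calls, edgeR with a replicate block 194 with 13, and DESeq2 179 with 8. The simulation had far fewer changed genes than were called here, so it does not give the error rate of these data. Coordinates and lengths are those of GENCODE v44 lifted to GRCh37, and promoter windows those of RefSeq (GRCh38.p14). The annotation used for the read counting was not given in the sources used here. Exon lengths and overlaps may therefore differ from those of the counted genes. The 2 libraries of a group differed by more than sampling noise (chi-square per degree of freedom 6.33 and 11.1, against 58.4 to 71.4 between groups).

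The regulators and the lists were chosen with earlier results of these data known. Named genes were all 10 regulators and, from each list, up to 4 genes called at 1.5-fold by smallest p-value, or otherwise the 2 with the smallest p-value. ESR1, ESR2 and the other genes that describe the line, CUL3, HMOX1, JUN, FOSL2, NFE2, MAF, MAFA, MAP1LC3B, GABARAPL1, NBR1, and genes that overlap a regulator were added outside that rule. Alternatives were RLE (the size factors of DESeq2) and upper-quartile normalization, loess offsets along expression (span 0.3), no low-count filter, at least 10 counts in every library, the DESeq2 1.42.0 Wald test, the replicate number as a block, and each library left out. MANE Select lengths were chosen after seeing the data.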

Additional observations from a re-analysis of the deposited data

How the results depend on the processing

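Counts of called genes moved by more than 1.5 times in few settings. Leaving out 1 library at a time gave 2 to 5 called regulators, where all 4 libraries gave 4, and 1 called regulator at 1.5-fold each time. Over all genes it gave 1413 to 3780 calls (3245 with all libraries) and 659 to 979 at 1.5-fold (874). The called ARE-driven genes numbered 23 to 28 (25) and those of the other lists 5 to 20 (20). The low ends came without a vehicle library, which leaves 1 library to stand for vehicle and assumes that it varies like the Liq pair. DESeq2 called 566 genes at 1.5-fold and 13 genes of the other lists, and the cause was not tested. With the replicate number as a block, 5 regulators were called, MAFG being the added one (edgeR adjusted p = 0.02026), and 4795 of all genes, 898 at 1.5-fold, 32 ARE-driven genes (31 upward) and 28 of the other lists. Deviations of same-numbered libraries correlated at 0.048 over all tested genes, without weight for their counts, and nothing in the labels beyond the shared numbers pairs them. For each regulator, however, the difference between replicates 1 and 2 had the same sign in both groups, and the block lowered its SE. For NFE2L2 the SE went from 0.073 to 0.046 and for SQSTM1 from 0.068 to 0.042. Whether same-numbered libraries were handled together was not tested. Of 297 values of named genes under the alternatives, 272 kept their direction and side of the threshold, 22 lost the call, 3 gained it and 0 changed sign. No scaling moved the median change of all genes by over 0.1. MAFF, at -0.99 to -0.91, and MAFK, at -0.54 to -0.43, were called under all 11 alternatives. In the fit without a block the SE of a regulator's log2 fold change was 0.07 to 0.11, so changes much under 0.2 were not detectable there. With the block the SE was 0.04 to 0.09, and MAFG was called at -0.15.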

Other observations

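The autophagy receptors beside SQSTM1 and the ATG8 proteins they bind held 11 tested genes, of which 2 rose and 1 fell. The share called was 27.3%, near the 24% of all tested genes. MAP1LC3A, an ATG8 protein that marks autophagosomes, had 79 and 81 counts in vehicle and 106 and 158 in Liq, a log2 fold change of 0.59 (edgeR adjusted p = 0.01816, SE 0.18). Its call was lost with loess offsets (0.1001), with DESeq2 (0.1411), without either vehicle library (0.204 and 0.058) and without Liq replicate 2 (0.05777). The others called were GABARAPL1 at 0.24 and NBR1 at -0.19, picked out after their values were seen. MAP1LC3B, the most used autophagosome marker, stood at 95.9 ± 0.7 CPM with vehicle and 94.1 ± 5.9 CPM with Liq (SD, n = 2), with a change of -0.03 that did not pass (edgeR adjusted p = 0.8361).

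Of the 14 other bZIP factors that share partners or sites with the CNC and small MAF proteins, 10 were tested, and 3 fell and 1 rose. The share called was 40%, beside 24% of all tested genes. At 1.5-fold it was 30%, beside 6.45%. JUNB had 1325 and 1197 counts in vehicle and 708 and 783 in Liq, a log2 fold change of -0.86 (edgeR adjusted p = 7.717e-07). FOSB changed by -0.93 and FOS by -0.80, and FOSL2, picked out after its values were seen, by 0.28. JUN, at 379 ± 6 CPM and 370 ± 23 CPM (SD, n = 2), had a change of -0.03 that did not pass (edgeR adjusted p = 0.7559). The erythroid CNC factor NFE2 had 0 or 1 count per library. Among the large MAF factors, MAF had 0 counts in all 4 libraries and MAFA 0 to 3, where 3 counts set the floor.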
